A study of Mus musculus with 4 samples.

Results

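RNA-Seq counts of 10 genes of arginine and polyamine metabolism were examined in large intestinal group 2 innate lymphoid cells (ILC2s) given the bile acid deoxycholic acid (DCA) or vehicle. The genes, Arg1, Arg2, Odc1, Srm, Sms, Oat, Ass1, Amd1, Oaz1 and Sat1, were picked by name for their place in the pathway, and all 10 were found among the 27179 rows of the deposited table. The cells were sorted from the colon of unmodified C57BL/6 mice and expanded for 5 days in IMDM with 4 cytokines at 10 ng/mL each (IL-33, IL-25, IL-7 and IL-2), which both treatments received. DCA was then given at 100 μM. The design text deposited with the libraries puts this exposure at 16 hours, and the study's methods give a longer time. Each treatment had 2 libraries. The methods give an age range of young adult mice for the study's animals as a whole and none for these libraries. Nothing in the labels says whether the libraries came from separate mice or cultures or whether mice were pooled, so the p-values measure only the spread between these libraries.

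Arginase splits arginine into urea and ornithine. Ornithine is then either decarboxylated to putrescine, the first polyamine, or passed by an aminotransferase toward proline, and putrescine is built up into spermidine and spermine with aminopropyl groups taken from decarboxylated S-adenosylmethionine. Polyamines bind nucleic acids and are needed for cell growth, and spermidine also donates the group that turns a lysine of the translation factor eIF5A into hypusine. Arginase-1 is a known product of ILC2s, and arginine breakdown has been linked to their growth and cytokine output.

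The libraries held 35838342 and 26564059 counts with vehicle and 32102232 and 244165712 counts with DCA, so that DCA replicate 2 was 7.61 times as deep as the median of the others. Levels are given as CPM, counts relative to library size after scaling by TMM factors, which correct for differences in library composition. The 10 ILC2 markers examined all had a mean of at least 1 CPM and summed to between 17727 and 22741 CPM per library, much of it Il5. Of these ILC2 markers, at an unadjusted p under 0.05, Klrg1 and Il1rl1 were lower with DCA (log2 fold changes of -0.74 and -0.60). Il2ra was higher (0.47). Each had an adjusted p of 0.999 in edgeR, and the part of these 3 markers in the results below was not tested. Neutrophil and ILC3 markers summed to at most 1.48 CPM in any library, with 4 of 6 and 4 of 5 of them at 0 in every library. T cell markers summed to between 6.52 and 13.2 CPM and epithelial markers to between 7.73 and 13.5 CPM. B cell markers summed to between 37.7 and 55.1 CPM, nearly all of it Cd79b. Mast cell and basophil markers summed to between 159 and 362 CPM, nearly all of it Kit, with Mcpt1, Mcpt2 and Fcer1a at 0. The basophil marker Mcpt8 was at 3.50 and 4.62 CPM with vehicle and at 4.51 and 0 CPM with DCA. Cpa3 was at 0 CPM with vehicle and at 0.186 and 0.349 CPM with DCA.

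No member gene passed the test for a difference between DCA and vehicle. The test was edgeR's quasi-likelihood F test, run on all 11184 genes that averaged 1 CPM or more. In it 0 of the 9 members tested had a Benjamini-Hochberg adjusted p under 0.05, as was true of 0% of all genes tested. At an unadjusted p under 0.05 there were 0 members, against 4.27% of all genes (2.54% higher and 1.73% lower with DCA). The log2 fold change was over 1 in size for 1 member, Arg1, against 18.2% of all genes. DESeq2 called 0 members, against 1.82% of the genes to which it gave an adjusted p. Arg2 was too low to be tested. The log2 fold changes of the 9 members, DCA minus vehicle, ran from -1.01 for Arg1 to 0.22 for Ass1, with a median of -0.29 beside a median of 0.0080 over all genes tested. All 9 intervals at 95% from that test held 0, and 4 of them, those of Odc1, Srm, Oaz1 and Sat1, stayed within a log2 change of 1 in either direction. The libraries of both treatments did not overlap for 3 of the 9 members, against 33.3% of all genes tested. These were Odc1, Oat and Sat1, for each of which the DCA libraries were the 2 lowest, as they were for 14.7% of all genes tested. None of these 9 was higher in both DCA libraries, against 18.6% of all genes tested. With 2 libraries against 2, a two-sided exact permutation test cannot give a p under 0.333. In bulk RNA, fewer cells of a type and less RNA per cell cannot be told apart.

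**Figure D1:**
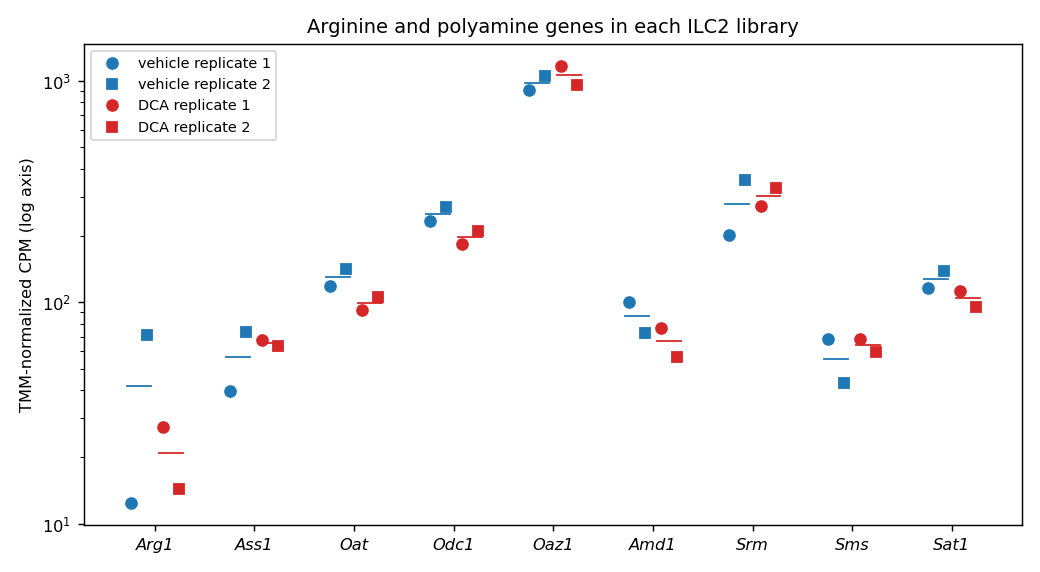
TMM-normalized CPM on a log axis for the 9 tested members in each library, with circles for replicate 1, squares for replicate 2, blue for vehicle and red for DCA, and a short line at each treatment mean. The vehicle libraries of Arg1 lie farther apart, at 12.4 and 71.5 CPM, than its treatment means, whereas both DCA libraries lie below both vehicle libraries for Oat, Odc1 and Sat1.

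Arg1 encodes the cytosolic arginase and lies on chromosome 10 from 24915207 to 24927470 (GRCm38, as for all positions here). It was at 12.4 and 71.5 CPM in vehicle replicates 1 and 2 and at 27.4 and 14.4 CPM in DCA replicates 1 and 2. Vehicle replicate 2 was the highest library and vehicle replicate 1 the lowest, with both DCA libraries between them. The means were 41.9 ± 41.8 CPM with vehicle and 20.9 ± 9.18 CPM with DCA (SD, n = 2 libraries each). The log2 fold change was -1.01, with a 95% interval from -3.00 to 0.99 (unadjusted p = 0.265, adjusted p = 0.999, edgeR's quasi-likelihood test). The direction rested on vehicle replicate 2. Without it the log2 fold change was 0.75, and without vehicle replicate 1 it was -1.81 (unadjusted p = 0.00544, adjusted p = 0.198 in edgeR, with the lone vehicle library assumed to vary like the DCA libraries). The vehicle libraries, with 454 and 1872 counts of Arg1, differed 5.76-fold in CPM, and 14.5% of all genes tested had a gap at least as wide. That share includes genes with far fewer counts and was not matched to the level of Arg1.

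Arginase-1 is also made by macrophages and neutrophils. Csf1r, C1qa, C1qb and Cd14 were at 0 counts in all libraries, as were S100a8, S100a9, Mpo and Elane. The 10 macrophage and monocyte markers, 4 of them at 0 throughout, summed to between 23.97 and 24.6 CPM with vehicle and to between 7.30 and 10.2 CPM with DCA, nearly all of it Cd68, which encodes a lysosomal protein. Cd68 was thus alike in the vehicle libraries between which Arg1 differed, and lower in both DCA libraries, and its part in the Arg1 values was not tested.

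The 3 tested genes whose log2(CPM + 1) values followed those of Arg1 most closely across the 4 libraries, by the root mean square difference after centring, were Gm16386, Rab37 and Prune1, with differences of 0.119, 0.131 and 0.131 on the log2 scale. Gm16386 was at 0 and 5.34 CPM with vehicle and at 0.989 and 0.141 CPM with DCA. It was low and reached the level for testing through vehicle replicate 2 alone. Rab37, which encodes a small GTPase of vesicle transport, was at 5.82 and 32.5 CPM with vehicle and at 15.0 and 7.95 CPM with DCA. With 4 libraries this likeness is a description only.

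Arg2, the mitochondrial arginase (chromosome 12, 79130788 to 79156301), was at 0 counts in each vehicle library and at 5 and 4 counts in DCA replicates 1 and 2. The upper limit that 0 counts leave, taken as 3 counts, was 0.0820 CPM for vehicle replicate 1 and 0.115 CPM for vehicle replicate 2. The mean of Arg2 with DCA was 0.0856 CPM, so no fold change can be given. These limits cover counting error only. The Arg2 exons overlap those of Vti1b and of the antisense gene Gm48780 on the other strand, and the sources used here do not say whether strand was used in counting. Arg1 had far more counts than Arg2 in every library, and the ratio of Arg1 to Arg2 could not be formed.

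Ass1 encodes argininosuccinate synthase, the step that starts the remaking of arginine from citrulline, and lies on chromosome 2 from 31470270 to 31520670. It was at 39.6 and 73.3 CPM with vehicle and at 67.8 and 63.4 CPM with DCA. The DCA libraries both lay between the vehicle libraries. The log2 fold change of Ass1 was 0.22 (95% interval -0.71 to 1.15), and it was -0.19 without vehicle replicate 1. Asl, the lyase that completes the remaking of arginine, was at 64.3 and 57.6 CPM with vehicle and at 88.2 and 80.9 CPM with DCA, above both vehicle libraries in both. Its log2 fold change was 0.47 (95% interval -0.20 to 1.14, unadjusted p = 0.139 and adjusted p = 0.999 in edgeR). The liver steps of the urea cycle were at or near 0, as Otc had 0 counts in all libraries, Nags at most 2, and Cps1 48 in DCA replicate 2 and 0 elsewhere.

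Odc1 and Oat take ornithine in different directions. Odc1, on chromosome 12 from 17544808 to 17551502, encodes ornithine decarboxylase, the rate-limiting enzyme of polyamine synthesis, and Oat, on chromosome 7 from 132557475 to 132576398, encodes ornithine aminotransferase. Odc1 was at 233 and 270 CPM with vehicle and at 184 and 210 CPM with DCA. Oat was at 119 and 141 CPM with vehicle and at 92.7 and 105 CPM with DCA. For both genes the highest DCA library stayed below the lowest vehicle library. Odc1 had a DCA-to-vehicle fold of 0.783 (95% interval 0.536 to 1.14) and a log2 fold change of -0.35, and did not pass the test (unadjusted p = 0.168, adjusted p = 0.999, edgeR). For Oat the fold was 0.763 (0.497 to 1.17) and the log2 fold change -0.39 (unadjusted p = 0.177, adjusted p = 0.999). Both kept a negative log2 fold change in all 14 alternatives, from -0.48 to -0.24 for Odc1 and from -0.53 to -0.26 for Oat. All these fits reuse the same libraries, whose treatments did not overlap, so the kept sign adds no further support.

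The ratio of Odc1 to Oat counts, which does not depend on how libraries are scaled, was 1.97 and 1.92 with vehicle and 1.98 and 2.00 with DCA. Their RNA thus stood in nearly the same proportion in all 4 libraries, and the log2 ratio differed by 0.036 between treatments (standard error 0.020, exact permutation p = 0.333, adjusted p = 0.667 over the 4 pairs compared).

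The bases before the RefSeq starts of Odc1 and Oat, 185 and 250 of them (GRCm38.p6, 5′ to 3′ on the gene's strand) are shown because their RNA kept this proportion. Odc1 is read from chr12:17544623-17544807 on the plus strand and Oat from chr7:132576399-132576648 on the minus strand, with 77.8% and 60.0% G and C. For Odc1 the last 65 bases of the reference window are left out because they lie within the annotated gene. Capitals would mark the letters CACGTG (an E box) or TGATGNAA (bound by ATF4 with C/EBP partners), searched on both strands, and neither string is in the 250 bases searched for either gene.
Odc1: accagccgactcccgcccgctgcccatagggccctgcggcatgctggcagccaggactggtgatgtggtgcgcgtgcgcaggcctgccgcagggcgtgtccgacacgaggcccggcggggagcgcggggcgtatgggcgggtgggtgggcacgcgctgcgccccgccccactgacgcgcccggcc
Oat: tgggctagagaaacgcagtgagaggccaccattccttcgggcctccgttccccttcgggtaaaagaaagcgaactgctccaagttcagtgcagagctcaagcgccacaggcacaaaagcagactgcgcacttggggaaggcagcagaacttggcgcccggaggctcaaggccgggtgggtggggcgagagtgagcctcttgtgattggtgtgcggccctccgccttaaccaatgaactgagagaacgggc
Of the members, 7 had such a window in the reference table. CACGTG was found before Ass1 and in a window of Sms, 2 members in all, and TGATGNAA before 0 members, against 6.02% and 3.45% of all 32851 windows. Members were counted by gene, with a match in any window of the gene, and the shares by window, so the measures differ. A match of letters is a description and not a bound site.

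Oaz1 encodes antizyme 1, which binds ornithine decarboxylase and sends it to the proteasome. It lies on chromosome 10 from 80826656 to 80829290 and was the most abundant member, at 911 and 1047 CPM with vehicle and at 1168 and 958 CPM with DCA. The treatments overlapped, and the log2 fold change was 0.12 (95% interval -0.39 to 0.63). It turned to -0.0051 without vehicle replicate 1 and to -0.038 without DCA replicate 1. The pseudogene Oaz1-ps had its own row with between 0.990% and 1.65% of the Oaz1 counts. There were 0.256 and 0.257 Odc1 counts per Oaz1 count with vehicle, and 0.157 and 0.219 with DCA. Both DCA libraries lay below both vehicle libraries, by a mean of 0.47 on the log2 scale (standard error 0.24, exact permutation p = 0.333, adjusted p = 0.667 over the 4 pairs). The vehicle libraries gave nearly the same ratio, whereas DCA replicate 2 lay closer to vehicle than to DCA replicate 1. Azin1, an antizyme inhibitor that frees ornithine decarboxylase, was at 184 and 157 CPM with vehicle and at 162 and 176 CPM with DCA. The fitted log2 difference was -0.015 (95% interval -0.57 to 0.54).

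**Figure D2:**
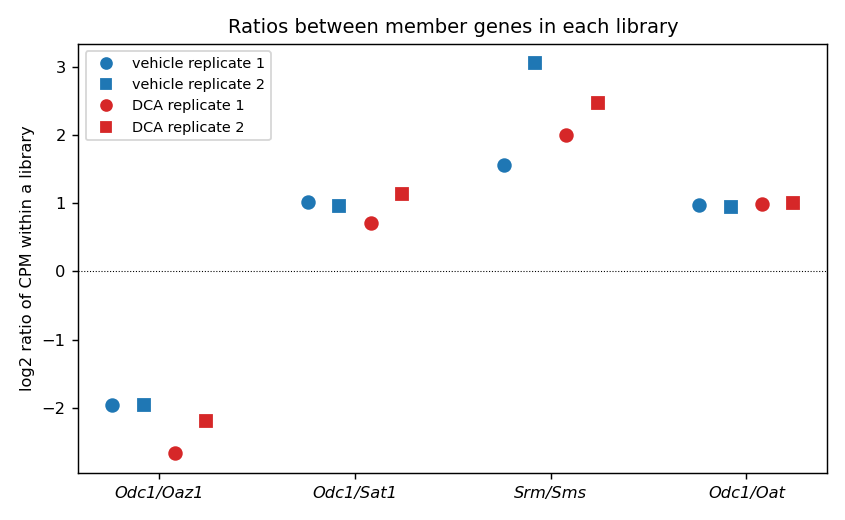
Log2 ratio of the CPM of the named genes within each library, with circles for replicate 1, squares for replicate 2, blue for vehicle and red for DCA. Odc1/Oat is nearly level, from 0.94 to 1.00 on the log2 scale, Odc1/Oaz1 is lower in both DCA libraries, and the vehicle libraries of Srm/Sms lie at 1.56 and 3.05.

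Amd1, Srm and Sms build spermidine and spermine. Amd1, which encodes S-adenosylmethionine decarboxylase (chromosome 10, 40287458 to 40302188), was at 100.5 and 72.9 CPM with vehicle and at 76.5 and 56.7 CPM with DCA. The treatments overlapped, since DCA replicate 1 lay above vehicle replicate 2, and the log2 fold change was -0.38 (95% interval -1.16 to 0.40). With 1 library left out it was -0.16 without vehicle replicate 1, -0.59 without vehicle replicate 2, -0.62 with DCA replicate 1 left out and -0.18 with DCA replicate 2 left out. The intronless copy Amd2 had its own row with between 1.82% and 3.20% of the Amd1 counts. Srm, which encodes spermidine synthase (chromosome 4, 148591513 to 148594619), was at 201 and 356 CPM with vehicle and at 273 and 329 CPM with DCA. Both DCA libraries lay between the vehicle libraries, and the log2 fold change of 0.11 (95% interval -0.66 to 0.88) became -0.27 without vehicle replicate 1 and -0.026 without DCA replicate 2.

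Sms encodes spermine synthase and lies on the X chromosome from 157443851 to 157492287. It was at 68.3 and 43.1 CPM with vehicle and at 68.5 and 59.6 CPM with DCA, for a log2 fold change of 0.20 (95% interval -0.65 to 1.05). Vehicle replicate 2 was lower than the other 3 libraries. The pseudogene Sms-ps had 1062, 717, 988 and 4768 counts in vehicle replicates 1 and 2 and DCA replicates 1 and 2, between 33.2% and 63.6% of the Sms counts, so how reads were split between the gene and its copy bears on the level of Sms. With the counts of both rows added together, Sms was at 97.3 and 70.4 CPM with vehicle and at 99.1 and 79.4 CPM with DCA, for a log2 fold change of 0.090 (unadjusted p = 0.777 in edgeR). There were 2.94 and 8.27 Srm counts per Sms count with vehicle and 3.98 and 5.52 with DCA. The vehicle libraries were thus the extremes of this ratio (exact permutation p = 1).

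Sat1 encodes spermidine/spermine N1-acetyltransferase, which marks polyamines for export or oxidation, and lies on the X chromosome from 155213126 to 155216449. It was at 116 and 138 CPM with vehicle and at 113 and 95.3 CPM with DCA. DCA replicate 1 lay just below vehicle replicate 1. The log2 fold change was -0.29 (95% interval -0.92 to 0.34, unadjusted p = 0.308 and adjusted p = 0.999 in edgeR). It was -0.44 without vehicle replicate 1, -0.15 without vehicle replicate 2 and -0.17 without DCA replicate 2. The ratio of Odc1 to Sat1 was 2.01 and 1.95 with vehicle and 1.63 and 2.203 with DCA. The DCA libraries thus lay on either side of the vehicle libraries (exact permutation p = 1). Smox, the spermine oxidase gene, was at 220 and 193 CPM with vehicle and at 240 and 224 CPM with DCA, above both vehicle libraries in both, for a log2 fold change of 0.17 (95% interval -0.36 to 0.70).

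Levels of different genes were compared as CPM per kilobase of exon, with exon lengths from GENCODE vM21. As the mean of 4 libraries, the order was Oaz1 at 951, Srm at 216, Odc1 at 102, Sat1 at 97.7, Oat at 53.1, Ass1 at 36.0, Amd1 at 23.9, Arg1 at 21.3, Sms at 16.1 and Arg2 at 0.030 CPM per kilobase. Neighbours in this order whose ranges over the 4 libraries did not overlap were Oaz1 and Srm, Srm and Odc1, Sat1 and Oat, and Sms and Arg2. The ranges of Odc1 and Sat1 overlapped, as did those of each neighbouring pair from Oat down to Sms. Arg1 was above Sms in 2 of the 4 libraries and below it in the others. The level of Sms is from its own row, and adding the counts of Sms-ps would raise it. The place of Sms beside Arg1 and Amd1 thus depends on how reads were split between the gene and its copy.

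**Figure D3:**
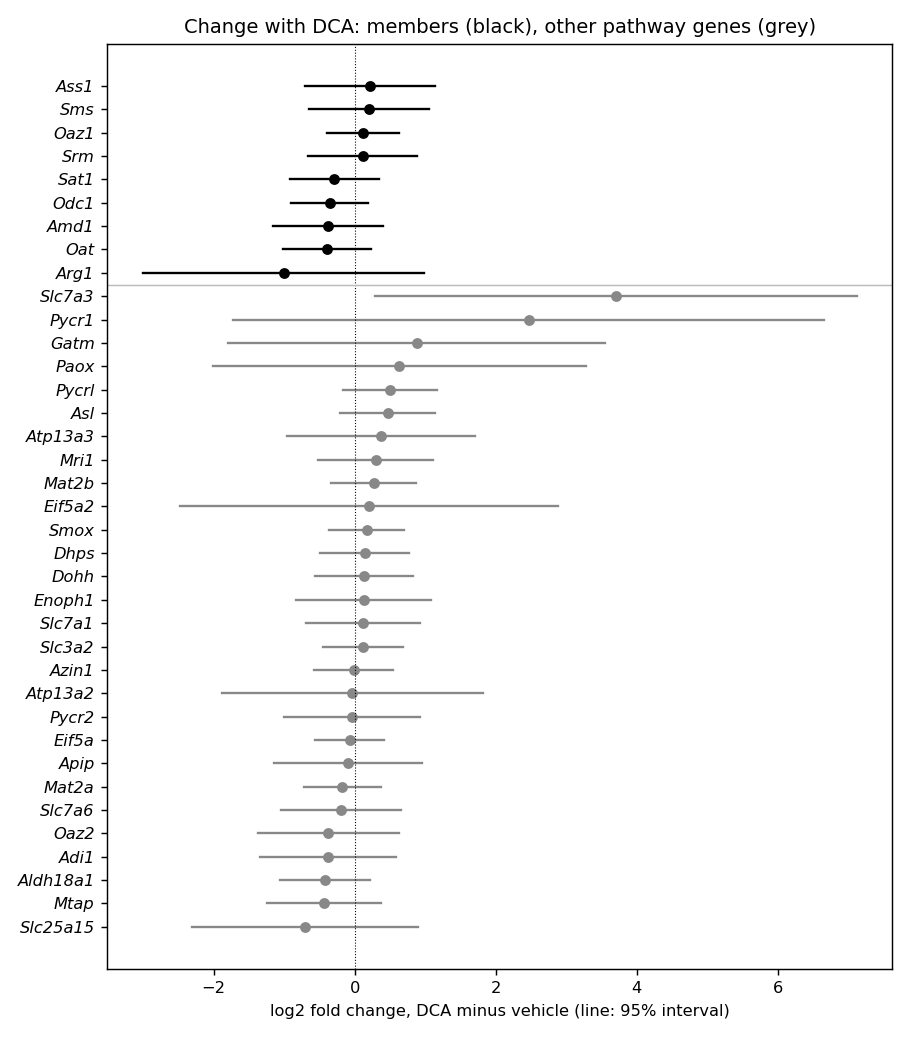
Log2 fold change, DCA minus vehicle, with its 95% interval from edgeR's quasi-likelihood test, for the 9 tested members (black) and for the other pathway genes averaging 5 CPM or more (grey). The intervals of all members cross 0, and that of Arg1 is the widest among them, from -3.00 to 0.99.

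The other genes of the pathway were described from a list of 48, of which 33 reached a mean of 1 CPM. Of these 33, 0 passed an adjusted p of 0.05 in edgeR (0% of all genes tested), and 2 had an unadjusted p under 0.05 (4.27% of all genes). Both were arginine transporters and higher with DCA, and Slc7a7 reached the level for testing through the DCA libraries alone. Their median log2 fold change was 0.13, with 19 fitted higher and 14 lower. The libraries of 11 did not overlap between treatments, 10 of them higher and 1 lower with DCA, beside 33.3%, 18.6% and 14.7% of all genes tested. Like Slc7a7, Aldh4a1 was among those higher, averaged under 1 CPM with vehicle and reached the level for testing through the DCA libraries. The total of 11 in 33 is the same share as over all genes. Otc, Agmat, Ddah1 and Slc18b1 had 0 counts in all libraries. Nos2, whose product makes nitric oxide from arginine, had 146 counts (0.607 CPM) in DCA replicate 2 and at most 2 counts in any other library.

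Slc7a3, which encodes the cationic amino acid transporter CAT3, was at 1.97 and 0.153 CPM with vehicle and at 18.3 and 9.45 CPM with DCA, higher in both DCA libraries. Its log2 fold change was 3.70 (95% interval 0.28 to 7.12, unadjusted p = 0.0379 and adjusted p = 0.999 in edgeR). Slc7a7, which encodes the light chain of a transporter that exchanges arginine for neutral amino acids, was at 0 counts in each vehicle library and at 157 and 386 counts in the DCA libraries, or 4.85 and 1.60 CPM. Against 3 counts per vehicle library it was at least 32.9-fold higher with DCA, or 16.3-fold by DCA replicate 2 alone. These bounds cover counting error only and not the spread between libraries. Slc7a7 did not pass the test (unadjusted p = 0.0241, adjusted p = 0.999 in edgeR). Slc3a2, the heavy chain that this light chain pairs with and the arginine transport gene with the highest level per kilobase, had a log2 fold change of 0.12 (95% interval -0.46 to 0.69). Among tested arginine transport genes, the higher-level ones Slc7a1, Slc7a6 and Slc3a2 thus had overlapping libraries. Those that did not overlap were at 1.97 CPM or less with vehicle. The direction of arginine transport was not measured.

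**Figure D4:**
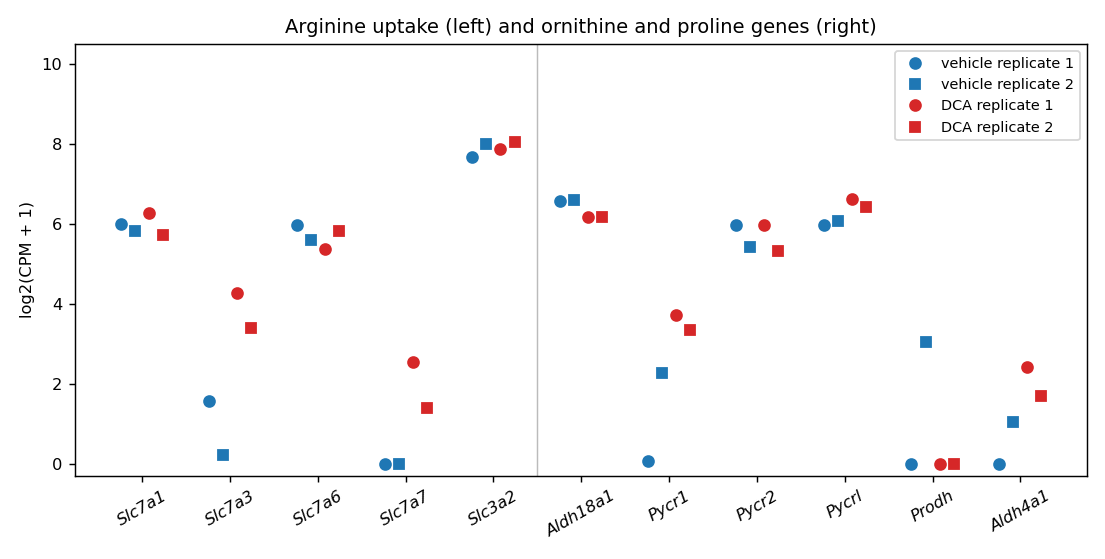
Level as log2(CPM + 1) of the tested arginine transport genes (uptake in the title) and of the ornithine and proline genes in each library, with circles for replicate 1, squares for replicate 2, blue for vehicle and red for DCA. Slc7a3, Slc7a7, Pycr1 and Aldh4a1 are low with vehicle and higher in both DCA libraries, and Prodh is above 0 in vehicle replicate 2 alone. Slc7a7 and Aldh4a1 reached the level for testing through the DCA libraries.

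On the way from ornithine and glutamate to proline, genes lay on both sides. Aldh18a1, which makes the intermediate shared by ornithine and proline, was at 93.6 and 96.2 CPM with vehicle and at 71.5 and 70.5 CPM with DCA, and was the pathway gene that was lower in both DCA libraries. Its log2 fold change was -0.42 (95% interval -1.05 to 0.22, unadjusted p = 0.160, edgeR). The proline-forming reductase gene Pycrl was at 61.8 and 66.5 CPM with vehicle and at 97.5 and 84.6 CPM with DCA. Its log2 fold change was 0.50 (95% interval -0.16 to 1.17), and it had the highest level per kilobase of this group. Pycr1, a mitochondrial reductase of the same step, was at 0.0546 and 3.82 CPM with vehicle and at 12.3 and 9.08 CPM with DCA. With 2 counts in vehicle replicate 1 its interval was wide, around a log2 fold change of 2.47 (95% interval -1.72 to 6.66, unadjusted p = 0.202, edgeR). Prodh, which starts proline breakdown, had 190 counts in vehicle replicate 2 and 0 in every other library. DESeq2 called it and edgeR did not, and the difference rested on vehicle replicate 2, through which alone it reached the level for testing. Of the pathway genes named here, Aldh18a1, Pycr1, Prodh, Aldh4a1, Slc7a1, Slc7a6, Otc, Nags, Cps1, Agmat, Ddah1, Slc18b1, Nos2, Dhps and Dohh were picked after their values had been seen.

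Among the 34 pathway genes with a promoter window, TGATGNAA was found before 2, Pycr1 and Slc7a7 (in 2 of its 5 windows), and CACGTG before 4. Of the genes with CACGTG, Aldh18a1 was lower in both DCA libraries, and for the others the treatments overlapped. The 250 bases before the start of Pycr1 (chr11:120643749-120643998, minus strand, RefSeq GRCm38.p6) are shown because it is a gene with these letters that was higher in both DCA libraries. Capitals mark TGATGNAA, whose first letter lies 103 bases before the start.
Pycr1: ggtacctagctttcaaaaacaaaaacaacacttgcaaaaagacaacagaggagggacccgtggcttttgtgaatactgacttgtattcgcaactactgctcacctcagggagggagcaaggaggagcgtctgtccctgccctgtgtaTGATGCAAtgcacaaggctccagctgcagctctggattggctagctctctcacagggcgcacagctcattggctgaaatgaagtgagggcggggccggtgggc
The letters were in 3.45% of all windows, a share by window and not by gene, and binding was not measured here.

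The remaining roles showed no gene past the test. Mat2a, which supplies S-adenosylmethionine, had a log2 fold change of -0.17 (95% interval -0.72 to 0.37), and 0 of the 8 methionine supply and salvage genes had an unadjusted p under 0.05. Atp13a3, a polyamine transporter, had a log2 fold change of 0.37 (95% interval -0.95 to 1.70), which became -0.17 without vehicle replicate 2 and -0.0058 without DCA replicate 2. Ddah2, which breaks down methylated arginines, was at 0 and 2.67 CPM with vehicle and at 9.80 and 4.04 CPM with DCA. These came from 0 and 70 counts with vehicle and 317 and 972 counts with DCA, the last from the deepest library. The log2 fold change of Ddah2 was 2.38 (95% interval -3.11 to 7.86). Eif5a, which encodes the protein that receives hypusine from spermidine, was at 2343 and 2956 CPM with vehicle and at 2397 and 2645 CPM with DCA. Its log2 fold change was -0.072 (95% interval -0.56 to 0.42), and the hypusine enzymes Dhps and Dohh had log2 fold changes of 0.14 and 0.13.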

How the data were processed

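Sorted, cultured mouse ILC2s were profiled by SMART-Seq HT and paired-end sequencing. The submitters' processing notes name cutadapt 1.9, HISAT2 2.2.1 and the mm10 build. The counting tool, annotation and strand setting are not given in the sources used here. The deposited values, as the authors made them, are whole-number counts per gene, although the table is named for FPKM. The 1275 rows without a symbol (0.137% to 0.173% of a library) were kept under their identifiers, and 0 sample columns were left out.

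Here, counts were tested with edgeR 4.0.16 in R 4.3.3 (TMM, quasi-likelihood, two-sided, Benjamini-Hochberg over 11184 genes averaging 1 CPM or more), with intervals from the same fit. The test was checked on simulated data. Means and SDs were taken on the TMM-normalized CPM scale. Alternatives were DESeq2 1.42.0, limma 3.58.1 on log2(CPM + 1), other scalings and filters, thinning DCA replicate 2, a replicate block, and leaving out each library. Adding the counts of near-identical copies was chosen after seeing the data. The members, the gene lists, which include markers of ILC2s, ILC3s, macrophages and monocytes, neutrophils, T cells, B cells, epithelial cells, and mast cells and basophils, and the tests were chosen with earlier results of these data known. Named were all members, pathway genes with an unadjusted p under 0.05 and, in each role, the one with the highest CPM per kilobase, besides genes said in the text to be picked later. Pycr3 is listed as Pycrl. Positions and promoter sequences are from RefSeq (GRCm38.p6, of which mm10 is the UCSC name) and exon lengths from GENCODE vM21.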

Additional observations from a re-analysis of the deposited data

How the results depend on the processing

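Of the 9 tested members, 0 passed an adjusted p of 0.05 under any of the 14 alternatives. Over all genes, 0 passed in edgeR with the 1 CPM filter, 36 without a filter on low counts (17706 genes tested) and 247 with DESeq2, and between 0 and 20 with 1 library left out. With DESeq2, 2 pathway genes passed, Slc7a7 and Prodh, each at 0 counts in both libraries of 1 treatment, and the cause was not tested. When a library is left out, the lone library of its treatment is assumed to vary like the other treatment. Across those fits the members' median log2 fold change ranged from -0.27 to -0.091 (without vehicle replicate 2), and the members without overlap from 4 to 8 of 9, where between 56.7% and 73.3% of all genes tested did not overlap. With 1 library out, log2 fold changes ran from -1.81 to 0.75 for Arg1, from -0.27 to 0.59 for Srm, from -0.091 to 0.55 for Sms, from -0.19 to 0.73 for Ass1, from -0.038 to 0.26 for Oaz1, from -0.12 to 0.077 for Azin1, from -0.069 to 0.29 for Slc3a2, from -0.26 to 0.11 for Eif5a, and from -0.17 to 1.25 for Atp13a3. Odc1, Oat, Amd1 and Sat1 kept a negative log2 fold change in every fit. For Odc1, Oat and Sat1, whose treatments did not overlap, this adds no further support. The pathway genes at an unadjusted p under 0.05, 2 at first, numbered 0 without DCA replicate 1 or DCA replicate 2 and 5 without vehicle replicate 1 or vehicle replicate 2, while the share of all genes was 0.956% and 2.34% without DCA replicates 1 and 2 and 13.5% and 11.0% without vehicle replicates 1 and 2. Of the members, Arg1 alone had an unadjusted p under 0.05 in any of these fits, without vehicle replicate 1, where 13.5% of all genes did.

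Libraries with the same replicate number deviated from their treatment means with a correlation of 0.020 across genes. The labels do not say whether such libraries shared mice or cultures, and this value cannot decide it. With the replicate block, 0 genes passed an adjusted p of 0.05, and 0 members and 1 pathway gene had an unadjusted p under 0.05, as did 4.02% of all genes. Arg1 then had a log2 fold change of -0.59. With limma on log2(CPM + 1), it was -0.58. Each tested member had at least 454 counts in every library, whereas Arg2 was at the limit of detection.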
